A study of Mus musculus with 4 samples.

Results

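Long intergenic non-coding RNA (lincRNA) genes were followed in resting CD4 T cells that lacked Btg1 and Btg2 or carried both. The members were the genes that GENCODE mouse release M21 types as lincRNA, without those whose symbol starts with Snhg, which left out 5. This gave 4795 of the 48858 genes that the files could be joined to. The cells of 2 wild-type (WT) and 2 double-knockout (DKO) mice had been sorted as TCRb+ CD4+ CD25- CD62L-high CD44-low and their rRNA-depleted total RNA sequenced. WT mice were littermates with the genotype Btg1f/f Btg2f/f, so both groups carried loxP-flanked alleles. DKO mice were Btg1f/f Btg2f/f-CD4-Cre, in which Cre from Cd4 regulatory sequences deletes the floxed parts in cells of the T lineage. No treatment or age was used as a group, and the libraries of a group are taken as separate mice because the labels speak of pairs of mice.

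BTG1 and BTG2 bind the CCR4-NOT complex, which shortens the poly(A) tails of messenger RNAs. LincRNAs are transcribed from their own genes outside coding genes, are mostly spliced and polyadenylated like messenger RNAs, and are annotated as coding for no protein. Many stay in the nucleus, as Malat1 does in nuclear speckles and Neat1 in paraspeckles, and others such as Norad and Cyrano act in the cytoplasm by binding proteins or microRNAs.

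The libraries held 13771588 to 17679071 estimated counts on joined genes. The targeted genes checked the labels. For Btg1 the counts were 7378 and 5443 (WT) against 103 and 125 (DKO), and for Btg2 they were 1295 and 1067 against 5 and 7. The 8 markers of naive CD4 T cells summed to 2919 to 3495 CPM (counts scaled to library size) in the 4 libraries and none was at 0. The 5 markers of regulatory T cells summed to 12.8 and 13.2 CPM in WT, against 28.2 and 45.1 CPM in DKO. The CD8 T cell markers summed to 7.21 and 7.55 CPM in WT, against 8.64 and 13.2 CPM in DKO. The sums of B cell, myeloid, NK and erythroid markers were at most 4.83 CPM in any library. The part of these cells in the results was not tested. With 2 against 2 libraries an exact permutation test cannot give a two-sided p below 0.333, so p-values come from a model fitted across all genes, the quasi-likelihood test of edgeR, adjusted by the Benjamini-Hochberg method.

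The sequences below are those that the results return to. The first 80 bases of the GENCODE transcripts of Gm33843 and Gm48505 are shown because these were the 2 lincRNA genes called between the genotypes.

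Gm33843 transcript start: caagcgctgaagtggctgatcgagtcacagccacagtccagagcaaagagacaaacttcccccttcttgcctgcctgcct

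Gm48505 transcript start: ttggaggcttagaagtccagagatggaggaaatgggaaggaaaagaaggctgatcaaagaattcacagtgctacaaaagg

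RefSeq places the start of Gm33843 farther upstream than GENCODE does, and its promoter there, from 250 bases before to 50 after the start (GRCm38.p6, chr10:96598696-96598995, minus strand), reads as follows.

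Gm33843 promoter: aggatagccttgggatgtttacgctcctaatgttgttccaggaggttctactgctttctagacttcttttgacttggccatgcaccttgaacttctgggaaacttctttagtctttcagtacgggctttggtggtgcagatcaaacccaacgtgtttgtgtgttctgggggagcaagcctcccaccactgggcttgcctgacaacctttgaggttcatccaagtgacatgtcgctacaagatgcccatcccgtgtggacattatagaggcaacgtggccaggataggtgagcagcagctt

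It is 50% G or C. The 5 motifs searched on both strands were the TATA box (TATAAA), the CCAAT box (CCAAT), the GC box (GGGCGG), an ETS core (GGAAGT) and a RUNX core (TGTGGT). None of them is in this window, which says only that these letters are not there. Of 32851 RefSeq promoters of this length, 13.6%, 37.4%, 35.7%, 23.8% and 16.8% hold them in that order.

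Malat1 is shown by 100 bases near its 3′ end (bases 6596 to 6695 of the 6983-base transcript). Capitals mark the pair of U-rich motifs and the run of 12 A that are known to fold into a triple helix that protects this unadenylated end.

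Malat1: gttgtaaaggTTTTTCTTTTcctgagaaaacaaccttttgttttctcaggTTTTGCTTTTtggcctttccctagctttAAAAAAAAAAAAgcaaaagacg

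2900097C17Rik is the mouse Norad gene, whose RNA is known to bind Pumilio proteins. The stretch from base 2430 to 2470 of its 4915 bases holds its 2 closest Pumilio motifs, TGTANATA, in capitals.

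2900097C17Rik: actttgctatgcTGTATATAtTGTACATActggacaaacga

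The transcript holds 11 such motifs on its own strand, or 2.24 per kb. Of 131 lincRNA genes with a transcript of at least 4000 bases, tested for expression or not, 57 (43.5%) hold any, and Norad alone reached that density.

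1700020I14Rik is the mouse Cyrano gene, which is known to drive the decay of miR-7. The capitals are the seed of the RefSeq mature miR-7a-5p (bases 2 to 8) and the complementary stretch in the RNA.

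mmu-miR-7a-5p: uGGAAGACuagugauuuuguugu

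1700020I14Rik: aacaacaaaatcaccaatGTCTTCCattt

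This site lies at bases 2934 to 2962 of the 8300-base transcript. Besides the seed match, a stretch of 13 bases is fully complementary to bases 11 to 23 of the 23-base microRNA.

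Most lincRNA genes gave little or no signal. Of the 4795 genes, 2679 had no count in any library and 2116 (44.1%) had some. The WT libraries had 1025 and 663 genes with at least 3 counts, and the DKO libraries 876 and 1138. The filter on low counts passed 460 (9.59%), against 10733 of 21945 protein-coding genes (48.9%). The median length-scaled level was 0.0750 TPM (scaled for transcript length and library) in tested lincRNA genes and 0.475 TPM in tested protein-coding genes. Their transcripts were shorter (median 2178 against 3500 bases) and more often had a single exon (11.3% against 2.23%).

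Counts on lincRNA genes were concentrated in a few. The 2 most abundant held 87.6% of all lincRNA counts, the first 5 held 97.2% and the first 20 held 98.3%. The first 2, Gm42418 and Gm26917, lie side by side on chromosome 17 in a stretch that also carries an annotated rRNA, CT010467.1. Of the 31-base words of Gm42418, 96.3% also occur in CT010467.1, so their reads cannot be told apart, while Gm26917 shares 0%. AY036118, on the opposite strand within Gm42418 and sharing 100% of its words with it, had 163766 counts in WT replicate 1 and 0 in the other 3 libraries. That library thus stands apart in the counts given to AY036118. Its share of counts summed over AY036118, Gm42418 and CT010467.1, given below, lies between those of WT replicate 2 and DKO replicate 1.

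The share of all counts on lincRNA genes was 7.38% and 7.73% for WT, and 7.69% and 7.42% for DKO. The groups overlapped, with means of 7.55 ± 0.251% and 7.56 ± 0.191% (SD, n = 2 each). The rRNA CT010467.1 alone took 29.2% and 32.3% of counts in WT, against 25.8% and 21.1% in DKO. Together with Gm42418 and AY036118, whose reads it shares, it took 33.3% and 36.1% in WT, against 29.5% and 24.5% in DKO, so the denominator differs between the groups. Without Gm42418, Gm26917 and AY036118 the WT shares were 0.798% and 0.592% and the DKO shares 0.575% and 0.741%, and the groups overlapped again. Leaving AY036118 in moved WT replicate 1 alone, to 1.89%. A second share was set against counts on nuclear protein-coding genes, with Lars2 left out, and on lincRNA genes without these 3. It was 2.54% and 1.91% in the WT libraries, against 1.60% and 1.80% in DKO. Here the groups did not overlap, with an exact two-sided permutation p of 0.333, the smallest possible.

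Between the genotypes, 2 lincRNA genes were called higher in DKO and 0 lower at an adjusted p under 0.05 (edgeR). Over all 12863 genes tested, 0.0544% were called higher and 0.07% lower. At an unadjusted p under 0.05, 4 of the 460 were higher (0.87%) and 23 lower (5%), against 3.82% and 4.35% of all genes. The groups did not overlap in 46 with DKO higher (10%) and 80 with DKO lower (17.4%), together 126 (27.4%). Over all genes this held for 19.8%, 18.8% and 38.6%. DESeq2 gave an adjusted p for 461 lincRNA genes and called 3 higher (0.651%) and 6 lower (1.3%), against 0.323% and 0.97% of the 12986 genes of all types. The 3 were Gm33843, Gm48505 and Gm26720, and the 6 were Gm26809, Slmapos2, Gm12840, Gm4316, Gm28872 and AY036118, the last with counts in 1 library.

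Both called genes lie upstream of Btg1, on the strand opposite to it. Gm33843 (ENSMUSG00000112354, chromosome 10, 96519157 to 96595731, minus strand, 3 exons) starts 21.3 kb from Btg1 and Gm48505 (ENSMUSG00000112264, 96495721 to 96523982, minus strand) 93.0 kb from it. The annotated spans of the pair overlap. The WT libraries held 2 and 0 counts of Gm33843 and the DKO libraries 123 and 184. It rose by a log2 fold change of 6.52 (SE 0.62, edgeR adjusted p = 0.0158). Gm48505 had 1 and 2 counts in WT against 114 and 308 in DKO, and rose by 6.39 on the log2 scale (SE 0.63, edgeR adjusted p = 0.0169). Both DKO libraries were far above both WT libraries for each gene. On summed counts the DKO to WT ratio was 101 for Gm33843 (95% exact interval 27.8 to 841) and 92.9 for Gm48505 (31.6 to 452), which covers counting error only. These intervals are wider than the SEs imply, so the SEs understate the uncertainty at so few WT counts. They share 4.97% and 3.10% of their words with other genes. Under the 2 models on log2 TPM neither was called, with adjusted p up to 0.170 and 0.235. Gm48505 also lost its call when a WT library was left out, with an edgeR adjusted p of 0.136 without WT replicate 1 and 0.101 without WT replicate 2.

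The rest of the region was then listed, a window chosen after these values were seen. Within 500 kb upstream of Btg1 there are 6 lincRNA genes, of which 5 had counts, 18 in the WT and 810 in the DKO libraries together. The called pair held 5 and 729 of these, which leaves 13 and 81 on the others. Gm48428 had 0 and 1 counts in WT against 8 and 16 in DKO. Gm48427 had 0 and 2 against 6 and 6. Gm33782 had 4 and 6 against 8 and 37, and its groups overlapped in CPM. These 3 did not pass the filter. Gm8601, a processed pseudogene and no lincRNA, lies between these 3 and the called pair. It had 22 and 39 counts in DKO and 0 in both WT libraries, and was tested but not called (log2 7.64, edgeR adjusted p = 0.162). Downstream of Btg1, the 3 lincRNA genes had 0 counts in all libraries. Around Btg2 the 4 lincRNA genes within 500 kb had 16 counts in WT and 29 in DKO on the downstream side and 5 and 11 upstream, with no group apart.

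**Figure D1:**
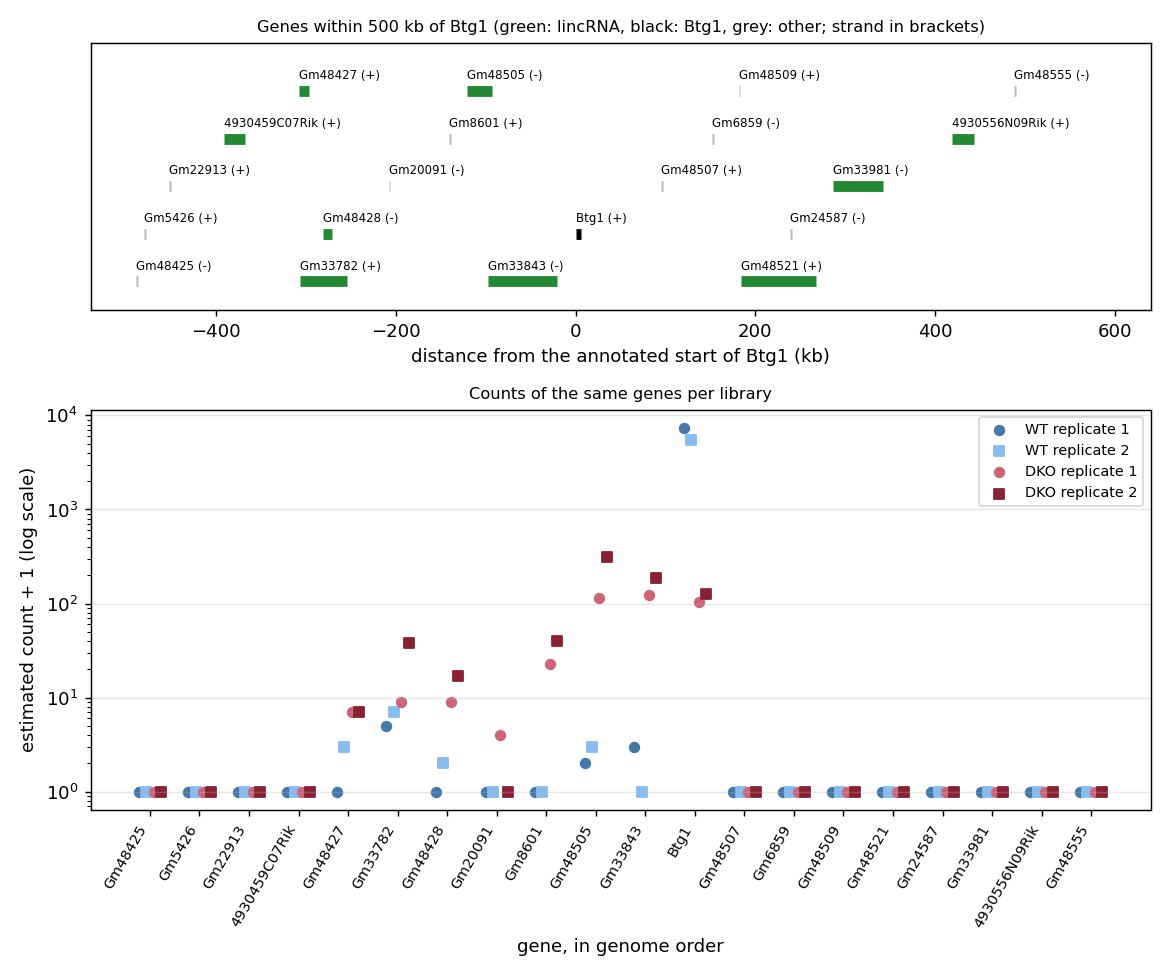
Upper panel: genes within 500 kb of Btg1 by distance from its annotated start (kb). Lower panel: estimated counts plus 1 on a log scale for the same genes in genome order, one point per library. The DKO points rise above the WT points at Gm48505, with 114 and 308 counts against 1 and 2, and at Gm33843, while the genes downstream of Btg1 lie at 0.

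Apart from the called genes, the lowest p in the higher direction by edgeR belonged to Gm26720 and Norad. Gm26720 had 20 and 35 counts in the DKO libraries and 0 in both WT libraries, at least 12.1-fold higher over the groups' floor of 3 counts (edgeR adjusted p = 0.182). It was called in 4 of the 14 other settings that included it, with an adjusted p of 0.031 by DESeq2, 0.0296 on total counts, 0.0053 with polymerase III scaling and 0.0013 with no filter. It overlaps an exon of Hdac4 and shares 99.1% of its words with it, so reads of the pair cannot be told apart. Hdac4, a histone deacetylase, was at 48.8 and 41.9 CPM in WT, against 50.6 and 49.5 CPM in DKO.

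Norad was not called by edgeR. It was at 69.8 and 72.2 CPM in WT, against 91.7 and 88.4 CPM in DKO, a log2 fold change of 0.34 (SE 0.13, edgeR adjusted p = 0.518). Its WT libraries agree closely, and the gap between the groups is wider than the spread within either. Cyrano was at 51.6 and 51.4 CPM in WT, against 54.6 and 67.5 CPM in DKO (log2 0.25, SE 0.15, adjusted p = 0.722), and its DKO libraries differed from each other by more than the gap between the groups. AW112010, an interferon-inducible RNA, was at 12.04 and 15.4 CPM in WT, against 20.8 and 16.2 CPM in DKO (log2 0.43, adjusted p = 0.643). Gm32633, of no role given here, was at 1.66 and 2.43 CPM in WT, against 5.32 and 2.74 CPM in DKO (log2 0.98, edgeR adjusted p = 0.645).

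Malat1 was at 2488 and 948 CPM in WT, against 1309 and 1748 CPM in DKO, so both DKO libraries lay between the 2 WT libraries (log2 −0.17, SE 0.50). Neat1 was at 35.3 and 18.8 CPM in WT, against 27.98 and 37.7 CPM in DKO (log2 0.27, SE 0.34). Its long isoform of 20771 bases, which builds the paraspeckle, took 56.2% and 42.2% of the gene's counts in WT and 47.4% and 52.3% in DKO, again overlapping. These counts are not scaled for length. In TPM the long isoform was at 0.0811 and 0.0278 in WT, against 0.0614 and 0.104 in DKO. The isoform of 3004 bases was at 0.441 and 0.264 TPM in WT, against 0.489 and 0.683 TPM in DKO.

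The list of long non-coding RNAs of known role held 44 symbols, of which 39 were annotated, 22 were lincRNA genes and 11 passed the filter. None of the 11 was called. Of the microRNA hosts, Mir17hg, which carries the miR-17 cluster, was at 4.11 and 1.91 CPM in WT, against 1.83 and 1.81 CPM in DKO. Mir142hg, the host of a microRNA of blood cells, was at 1.59 and 0.607 CPM in WT, against 1.42 and 0.928 CPM in DKO. Of the p53-linked genes, Lncpint was at 14.8 and 9.80 CPM in WT, against 6.03 and 10.1 CPM in DKO. Pvt1, the neighbour of Myc, was at 5.34 and 4.94 CPM in WT, against 4.02 and 5.47 CPM in DKO. Groups overlapped for Mir142hg, Lncpint and Pvt1. Epb41l4aos, also of the list, was at 5.26 and 7.29 CPM in WT, against 4.32 and 3.29 CPM in DKO. Its groups did not overlap (log2 −0.72, SE 0.31, edgeR unadjusted p = 0.0451, adjusted p = 0.605).

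Of the genes of the X inactivation centre, Ftx and Jpx, activators of Xist, passed the filter. Ftx was at 3.32 and 1.47 CPM in WT, against 1.54 and 2.27 CPM in DKO, and Jpx was at 1.23 and 0.607 CPM in WT, against 1.01 and 1.44 CPM in DKO. Xist, the RNA that coats the inactive X chromosome, had 6, 0, 1 and 2 counts and was not tested. Of the imprinted genes, Meg3 had 15 and 9 counts in WT, against 9 and 41 in DKO. The list's members with no count in any library included Hotair, Hottip and Mirg.

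**Figure D2:**
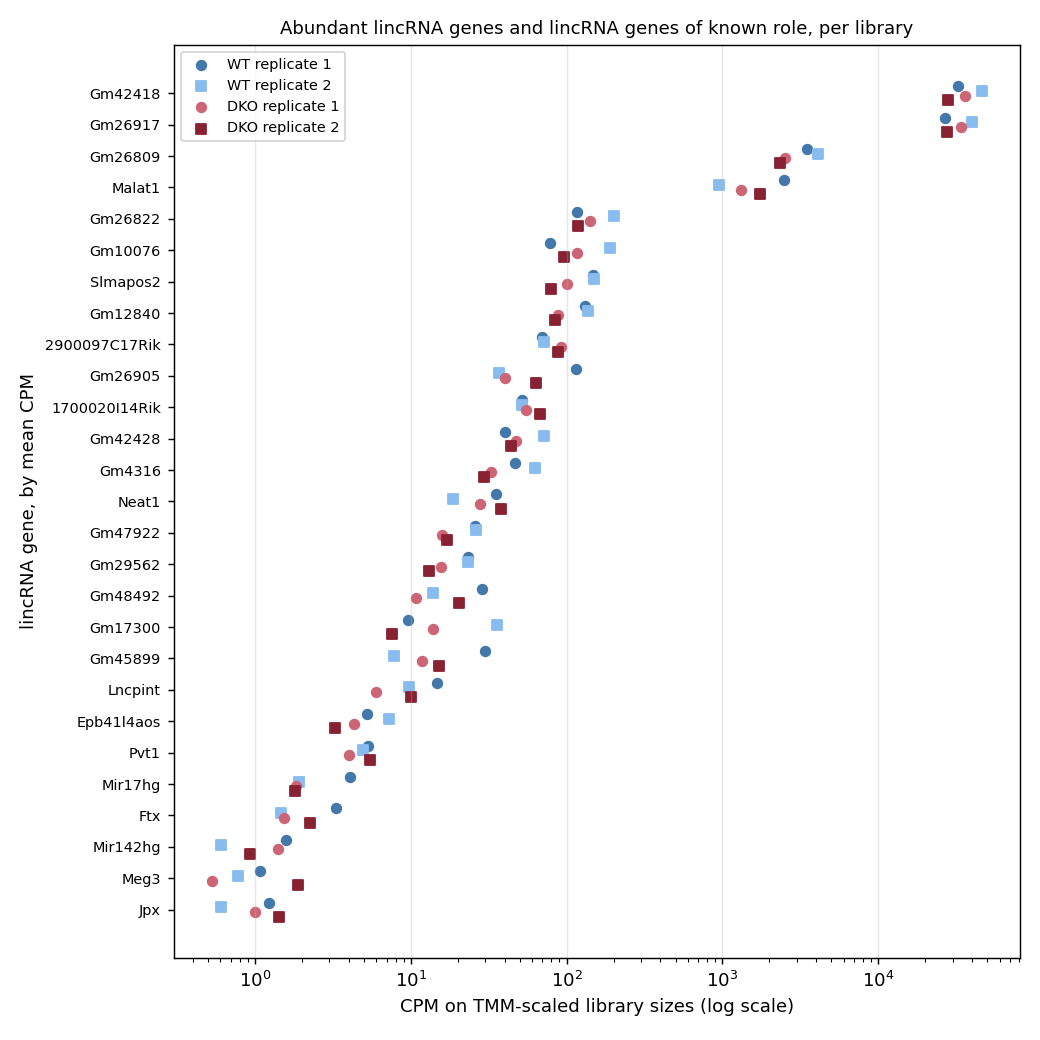
CPM on TMM-scaled library sizes (log scale) of the abundant lincRNA genes and of those of known role that had a count in every library, one point per library. The WT points lie above the DKO points for Slmapos2 and Gm12840 and below them for 2900097C17Rik, while those of Malat1 span 948 to 2488 CPM in WT alone.

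In the lower direction edgeR called no gene in the reported fit, where the lowest p belonged to genes of no role given here. Several of them were called under other settings. Gm12840 was at 131 and 137 CPM in WT, against 87.96 and 84.9 CPM in DKO (log2 −0.63, SE 0.13, edgeR adjusted p = 0.15). Slmapos2, on the strand opposite to Slmap, was at 149 and 150 CPM in WT, against 100 and 80.02 CPM in DKO (log2 −0.73, SE 0.15, adjusted p = 0.161). In both, the groups lay apart by more than the libraries of a group differed. Gm4316 was at 46.8 and 62.4 CPM in WT, against 32.8 and 29.6 CPM in DKO (log2 −0.81, adjusted p = 0.162). Gm47922 and Gm26880 had log2 fold changes of −0.66 and −0.80, and Gm29408 of −1.14 (adjusted p of 0.198 to 0.212). Gm26809, the third most abundant member, was at 3506 and 4070 CPM in WT, against 2504 and 2340 CPM in DKO (log2 −0.65, adjusted p = 0.415). DESeq2 gave adjusted p-values of 0.0118 for Gm26809, 0.0187 for Slmapos2, 0.038 for Gm12840 and 0.0493 for Gm4316. Gm4316 was called in 5 of 16 other settings, and Slmapos2, Gm12840 and Gm29408 in 3 each.

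Of these, Gm12840 and Gm29408 share much of their sequence with Gm26809, so these genes are not separate observations. Gm12840 shares 59.8% of its words with Gm26809 and Gm29408 shares 51.6% with it. The other lower genes named above also share words with other genes. Gm26880 shares 66.3% (41.0% with Gm42031), Gm26809 47.4% and Gm4316 37.65% (19.6% with the coding gene Miga1). Slmapos2 shares 8.92% and Gm47922 4.50%. The longest identical run of Gm26809 and Gm29408, of 83 bases, is shown as a stretch where reads of the pair cannot be told apart. It does not hold all the words that the pair shares.

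Gm26809 and Gm29408: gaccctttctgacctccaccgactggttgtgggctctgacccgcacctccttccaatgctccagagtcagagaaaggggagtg

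A run of 134 bases of Gm26809 occurs in Gm12840 on the opposite strand. Slmapos2 and Gm47922 share a run of 45 bases, which is only 4.67% of Gm47922. Of the 23 genes lower at an unadjusted p under 0.05, 11 share at least 50% of their words with other genes and 5 share under 5%. Over all 460 tested genes, 69 share at least 50% and 209 under 5%, and the median shared is 5.84%, against 47.4% in the 23.

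**Figure D3:**
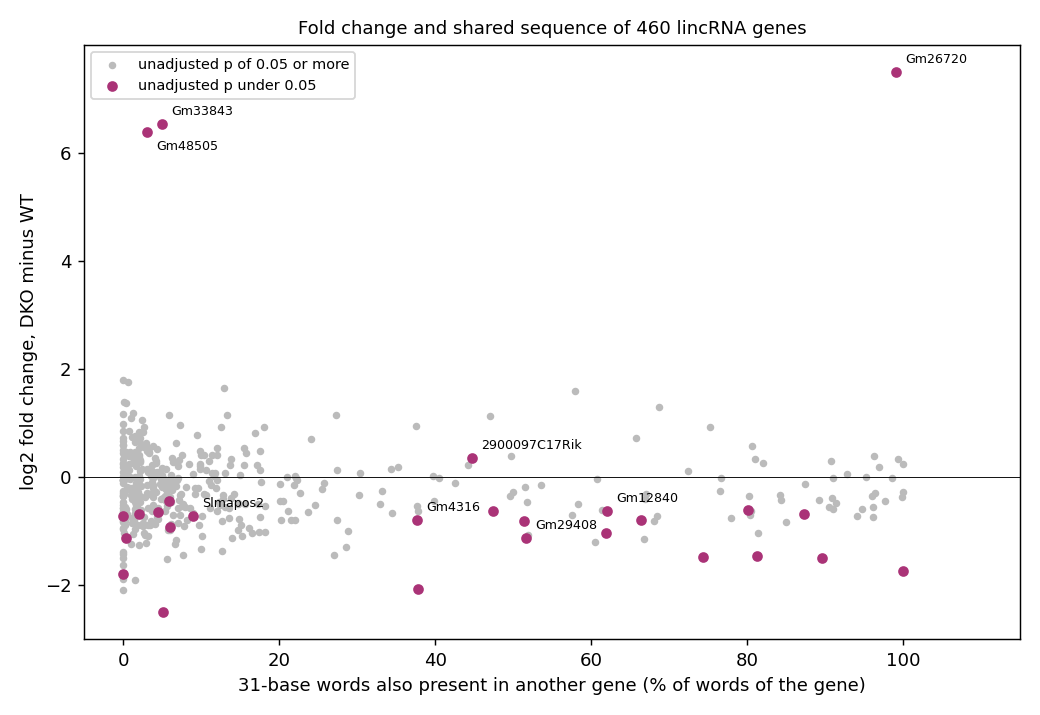
Log2 fold change (DKO minus WT) of the 460 tested lincRNA genes against the share of their 31-base words found in another gene, one point per gene. The coloured genes below 0 are spread over the whole range of sharing, and Gm33843 and Gm48505 lie at under 5%.

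The libraries of one genotype differed in lincRNA genes as a group. WT replicate 1 was above WT replicate 2 in 364 of the 460 (79.1%), against 48.5% of all genes tested, with a median log2 difference of 0.87. DKO replicate 2 was above DKO replicate 1 in 316 (68.7%), against 50.3% of all genes, with a median of 0.37. The 209 genes with under 5% shared words gave 78.9% and 67.0%. The differences were larger at low levels. The 389 genes with a mean under 5 CPM gave 82.0% and 71.0%, with medians of 1.01 and 0.41. The 71 genes at 5 CPM or more gave 63.4% and 56.3%, with medians of 0.32 and 0.10. Protein-coding genes whose CPM lay between the 10th and 90th percentile of the lincRNA genes gave 54.6% and 57.0%. Malat1, Neat1 and Gm26905 followed this order, and Gm10076, which shares 82.2% of its words with the ribosomal protein gene Rpl41, had the opposite order. No test was made of these library differences.

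**Figure D4:**
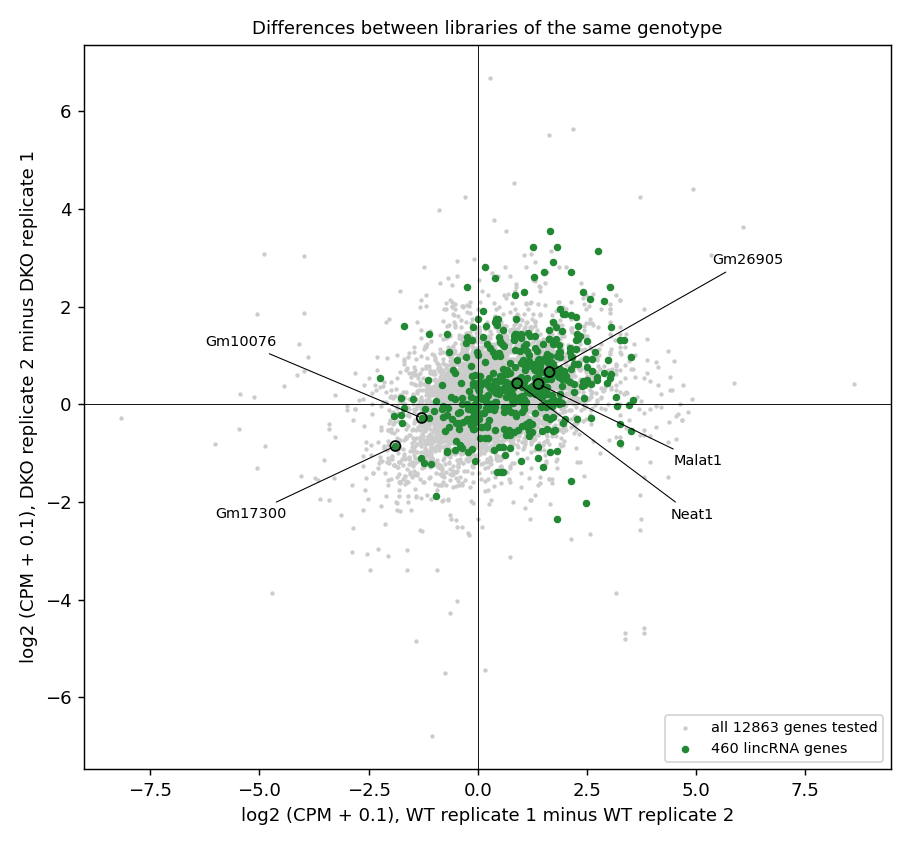
Difference in log2(CPM + 0.1) between the 2 WT libraries (x axis) and between the 2 DKO libraries (y axis), one point per gene. LincRNA genes, in green, lie mostly to the right of 0 and above it, with 60.9% in the upper right part against 29.7% of all genes.

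The median log2 fold change of the 460 genes, −0.27, was set against −0.01 for all genes tested. This value depended on single libraries. Without WT replicate 1 the median was 0.45, and without WT replicate 2 it was −0.62. It was also above 0 on total counts (0.06, all genes 0.32) and on polymerase III transcripts (0.63, all genes 0.90). The difference in median between the genotypes was smaller than the pooled SD of the library medians within groups, 0.49.

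**Figure D5:**
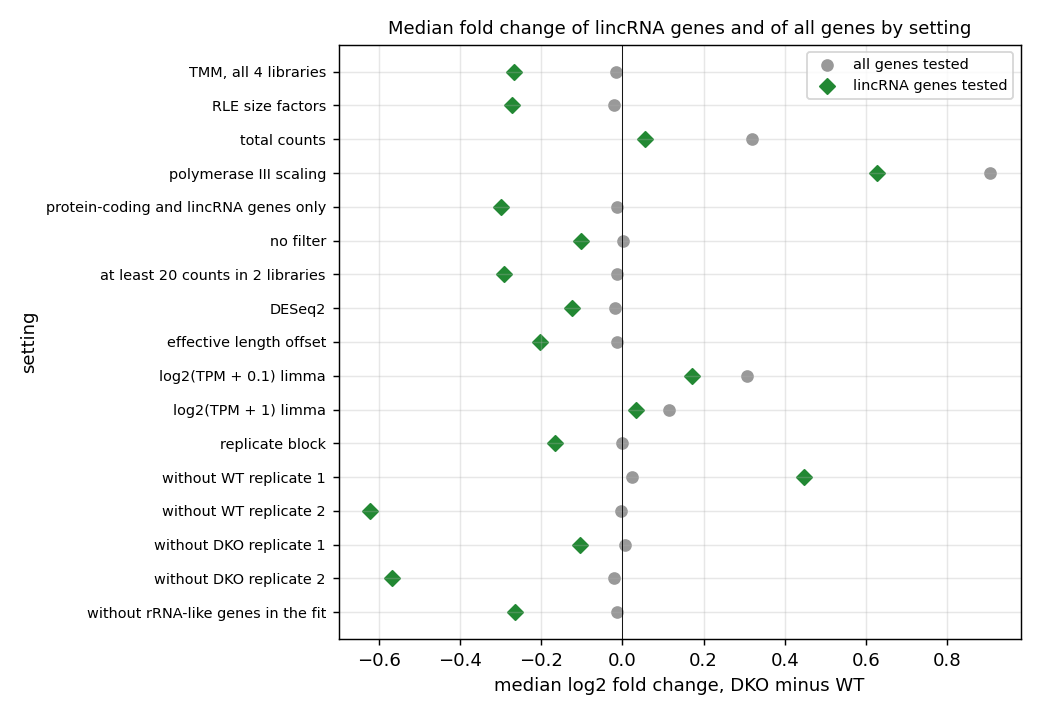
Median log2 fold change (DKO minus WT) of tested lincRNA genes (green diamonds) and of all genes tested (grey circles) under each setting. The green median is below the grey one in every setting plotted except without WT replicate 1, where it is 0.45.

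The position of the tested genes relative to coding genes was compared too. Over the 313 tested lincRNA genes whose nearest protein-coding gene was also tested, the log2 fold changes of neighbours had a Pearson correlation of −0.41. It rests on the called pair, whose neighbour is Btg1: over the other 311 it was 0.08. This is a description across genes in the same libraries, and genes are not independent replicates. Of all neighbours, 147 of 313 (47.0%) had the same sign.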

How the data were processed

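Per the labels' protocols, RNA was extracted with RNeasy Micro and turned into libraries by a SMARTer Stranded Total RNA-Seq Pico kit. Per the submitters' processing notes, the authors estimated abundances with kallisto on mm10 (GRCm38). Version, strand setting and annotation are not given in the sources used, so an overlapping antisense gene's reads cannot be separated. Per the file headers, the deposited values are estimated counts and TPM per transcript. Transcripts were joined without version to GENCODE M21 (98.7%), and estimated counts summed per gene and rounded. Depth per library was 13771588 to 17679071 counts on joined genes, and 3 counts were the floor.

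The test for genes of all types was that of edgeR 4.0.16, under R 4.3.3 (filterByExpr, TMM, quasi-likelihood), adjusted over 12863 genes at 0.05. Alternatives used DESeq2 1.42.0 and limma 3.58.1. On simulated counts of 12496 genes, only genes with a mean of at least 50 counts were changed. Of those changed by a log2 of 1, 32.1% were called, with 98.3% at 2 and 100% at 4. Recovery at lower counts was not tested. These rates therefore do not cover most tested lincRNA genes, whose median was 1.22 CPM. Members, lists, motifs, windows and subsets were chosen with earlier results of these data known. The genes named are the 20 most abundant, those called, up to 6 in each direction with the lowest p among non-overlapping genes, and tested genes of the known-role list. Sequences come from GENCODE and RefSeq files.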

Additional observations from a re-analysis of the deposited data

How the results depend on the processing

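The 2 calls higher in DKO, Gm33843 and Gm48505, were made in 14 and 12 of the 16 fits tried besides that reported, and their direction was the same in all 16. Members called higher numbered 6 with polymerase III scaling (1.3%, all genes 3.67%), 4 with no filter (0.201%, all genes 0.544%) and 0 in each model on log2 TPM (all genes 0.0175% and 0%), with 1 to 2 when a replicate was left out (all genes 0.0879% to 0.243%). Members called lower numbered 1 on total counts (0.217%, all genes 0.49%), 2 with protein-coding and lincRNA genes only (0.442%, all 0.107%), 11 with no filter (0.554%, all 0.98%), 6 with DESeq2 (1.3%, all 0.97%) and 0 to 6 when a replicate was left out (0% to 0.897%, all 0.205% to 0.938%). Over all genes, calls numbered 16 in the reported fit and 0 to 494 in the others.

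The median log2 fold change of tested members became 0.056 on total counts, 0.63 with polymerase III scaling, and 0.17 and 0.035 in the models on log2 TPM with 0.1 and 1 added. With a replicate left out it ran from −0.62 to 0.45. The difference in the share of counts (DKO minus WT, percentage points) moved from 0.00072 to −0.58 without Gm42418 and Gm26917, −0.60 without Malat1 too, and −2.16 without Gm42418 and Gm26917 over nuclear protein-coding plus lincRNA counts. In each of these WT replicate 1 carries AY036118. Leaving that gene out too, chosen after seeing the data, gave −0.04 over all counts and −0.52, with the groups apart, over nuclear protein-coding plus lincRNA counts. The nuclear protein-coding counts leave out Lars2 wherever they are used here.

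Of the 34 named genes tested, 9 kept their direction in every fit that included them. Log2 fold changes that changed sign with polymerase III scaling, which moves the median of all genes to 0.90, were Gm42418 0.64, Gm26917 0.84, Gm26809 0.29, Malat1 0.66, Gm26822 0.69, Gm10076 0.69, Slmapos2 0.17, Gm12840 0.29, Gm26905 0.27, Gm42428 0.71, Gm4316 0.14, Gm47922 0.27, Gm29562 0.20, Gm48492 0.43, Gm45899 0.30, Gm26880 0.13, Lncpint 0.31, Epb41l4aos 0.22, Pvt1 0.83, Mir17hg 0.10, Ftx 0.53. On total counts they were Gm42418 0.031, Gm26917 0.22, Malat1 0.15, Gm26822 0.061, Gm10076 0.022, Gm42428 0.070, Pvt1 0.24. In the model on log2(TPM + 0.1) they were Gm42418 0.10, Gm26917 0.29, Malat1 0.22, Gm26822 0.14, Gm10076 0.25, Gm42428 0.26, Gm45899 0.16, Lncpint 0.19, Pvt1 0.20, and in that on log2(TPM + 1) Gm42418 0.10, Gm26917 0.29, Malat1 0.20, Gm26822 0.11, Gm10076 0.25, Gm42428 0.25, Gm45899 0.017, Lncpint 0.12, Pvt1 0.069. With the effective length offset, Ftx 0.39 changed sign. When a replicate was left out, these genes changed sign, with ranges of Gm26917 −0.38 to 0.22, Malat1 −0.69 to 0.69, Gm26822 −0.63 to 0.17, Gm10076 −0.84 to 0.45, Gm26905 −1.14 to 0.49, Gm42428 −0.64 to 0.20, Neat1 −0.089 to 0.80, Gm48492 −0.96 to 0.16, Gm17300 −1.75 to 0.17, Gm45899 −1.14 to 0.79, Pvt1 −0.33 to 0.11, Ftx −0.78 to 0.37, Mir142hg −0.43 to 0.93, Meg3 −0.78 to 1.04. The causes were not tested.

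With the replicate number as a block, 2 members were called higher (0.435%, all genes 0.412%) and 4 lower (0.87%, all genes 0.7%), with a median of −0.17. The 4 were Gm29408, Gm42031, Gm4316 and Gm48657. The labels speak of pairs of mice but do not tie a replicate number to a pair. The differences between replicates 1 and 2 in WT and in DKO correlated at −0.31 over genes, which does not settle whether or how the mice were paired.

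Depth limits what can be said of the 4335 members that did not pass the filter. The removal of rRNA-like genes from the fit and the subset with under 5% shared words were added after seeing the data, and both gave 2 higher and 0 lower.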

Other observations

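Long non-coding RNAs of the known-role list that GENCODE types otherwise than lincRNA were read beside the members, as values only. Kcnq1ot1, an imprinted antisense RNA, was at 96.5 and 36.5 CPM in WT and 35.3 and 53.7 CPM in DKO, with the same order of libraries as Malat1. Tug1 was at 49.5 and 49.96 CPM in WT and 46.8 and 47.5 CPM in DKO. The snoRNA hosts Gas5 and Zfas1 had both DKO libraries below both WT libraries, Gas5 at 80.8 and 101 CPM against 64.9 and 58.0 CPM and Zfas1 at 9.52 and 10.6 CPM against 4.97 and 4.41 CPM. Dancr was at 50.2 and 70.8 CPM in WT and 22.3 and 11.4 CPM in DKO. Rmrp was at 1321 and 2371 CPM against 950 and 596 CPM, and Peg13 at 29.6 and 29.1 CPM against 19.6 and 15.5 CPM. Dancr, Rmrp, Peg13 and Tug1 thus also had both DKO libraries lower, which held for 18.8% of all genes tested. Groups overlapped for the others of these that passed the filter, Kcnq1ot1, Airn, Dleu2, Firre and Terc. These genes were chosen after their values were seen, and no test is given for them.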
